A study of Mus musculus with 5 samples.

Results

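Mouse epiblast stem cells that had received leukemia inhibitory factor (LIF) for 12 h were set against cells of the same line, E3, kept in plain medium, with 1 bead array on each side. These are pluripotent cells from the post-implantation epiblast. Of the 5 arrays of the series, these 2 carry the comparison. The 10694 named probes compared were each detected on at least 1 of the 2 arrays at a detection p under 0.01. They belong to 7806 genes, and the 7796 genes whose brightest probe was among them were compared. The LIF culture received 1000 U/ml LIF. The PCL culture received LIF at that dose with 1 µM PD0325901, a MEK inhibitor, and 3 µM CHIR99021, a GSK3 inhibitor. The PD and CH cultures received PD0325901 or CHIR99021 alone at these doses, and the untreated culture received none of the agents. All 5 cultures had grown before in 5 ng/ml FGF2 on a layer of inactivated CF1 mouse fibroblasts, the medium held knockout serum replacement, and all 5 spent the 12 h without added FGF2. RNA from fibroblasts was not separated from that of the stem cells, and in such bulk RNA fewer cells of a type and less RNA per cell cannot be told apart.

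LIF is a cytokine of the interleukin 6 family. Its receptor pairs LIFR with gp130, activates the kinases JAK1 and JAK2, and these phosphorylate the transcription factor STAT3, which enters the nucleus and switches on its targets, among them its own gene and the feedback inhibitor SOCS3. In mouse embryonic stem cells this route maintains self-renewal, whereas epiblast stem cells are maintained by FGF and activin and do not depend on LIF.

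Values are log2 levels after background correction and normalization, and differences are LIF minus untreated on the log2 scale. With 1 array per condition no difference has a replicate check and no test was possible. Each ± is a bead standard error, taken over the beads that carry a probe, and covers measurement within the arrays only. Its median over the genes compared was 0.13. A gene is represented by its brightest probe, and genes with several probes give a repeat measurement of the same RNA. Between 10389 and 10898 probes were detected on the 5 arrays, the most on the LIF array, and the median raw intensity was 93.9 on the LIF array and 90.0 on the untreated array. All 9 epiblast stem cell markers examined were detected on both arrays, with Pou5f1, the central pluripotency factor, at 12.78 with LIF and 12.35 untreated. Of 37 feeder fibroblast markers on the array 28 were compared, with a summed linear level of 16213 with LIF and 14351 untreated. Such a sum is set mostly by the brightest markers, and the median difference of the 28 was 0.03. On a shorter list of 12 such markers 8 were detected on both arrays, Dcn, Fbln2, Lox, Thy1, Timp3, Col1a1, Pdgfra and Twist1, and Col1a2, Col3a1 and Postn on neither. Of the 8, Fbln2, Lox and Timp3 were higher with LIF, at 0.64, 0.32 and 0.46. Dcn, Thy1, Col1a1, Pdgfra and Twist1 were lower, at -0.33, -0.32, -0.27, -0.03 and -0.09.

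Over all 7796 genes the median difference was 0.05, and 11 genes stood at least 2-fold higher with LIF (0.141% of those compared). At least 2-fold lower were 219 genes (2.81%). With probes below detection on 1 array set to the lowest level detected there, 8 and 209 genes remained past 2-fold. The LIF array gave the highest of the 5 levels for 10 of the 11 higher genes and the lowest for 214 of the 219 lower ones, against 27.8% and 20.1% of all genes, counts that follow in large part from choosing genes by their value on this array.

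The 2 genes furthest above were Ahcy and Socs3. Socs3 had a level of 9.42 with LIF, 8.93 with PCL, 6.79 with PD, 7.62 with CH and 7.63 untreated, so that both cultures with LIF stood above the 3 without it. Its difference was 1.79 ± 0.10, from raw intensities of 802 with LIF and 251 untreated. Stat3 had levels of 8.63 with LIF, 8.24 with PCL, 7.63 with PD, 7.89 with CH and 7.34 untreated. The order of the cultures was again LIF, PCL and then those without LIF, though the step between PCL and CH was smaller. Its 3 probes stood higher with LIF by 1.29 ± 0.12, 1.08 ± 0.21 and 0.92 ± 0.12, and all 3 were also higher with PCL than the mean of PD and CH. Bcl3, a coactivator of NF-kappaB proteins, had 5.88 with LIF, 5.86 with PCL, 4.69 with PD, 4.89 with CH and 5.05 untreated, and was detected on the 2 arrays with LIF only. It was at least 1.71-fold higher with LIF than untreated.

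The arrays offer a second setting with LIF that shares no array with the first: PCL against the mean of PD and CH. It is not a comparison of LIF alone, since PCL differs from PD by LIF and CHIR99021 and from CH by LIF and PD0325901. In it Socs3 stood at 1.73 ± 0.10 and Stat3 at 0.48 ± 0.13, and Bcl3, below detection with PD and with CH, was at least 1.70-fold higher. Socs3 was the only one of the 11 genes at least 2-fold higher with LIF that was also at least 2-fold higher in this second contrast, in which 13 of all genes reached that size (0.167%). Of the 11, 5 stood above 0 there, where 49.6% of all genes did.

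**Figure D1:**
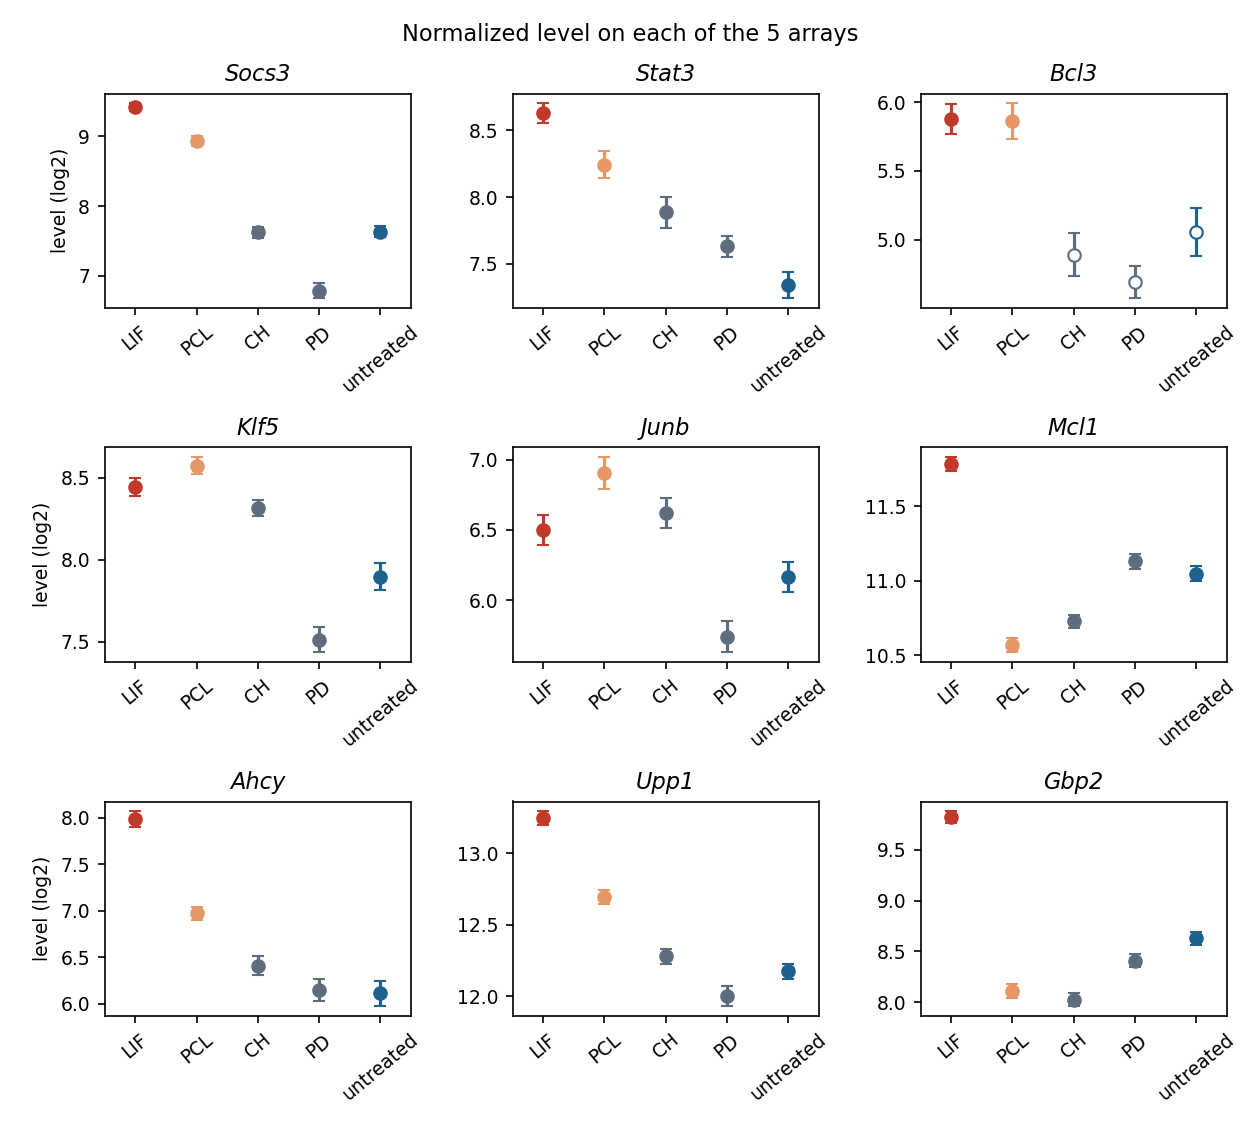
Normalized log2 levels of 9 genes on the 5 arrays, 1 array per condition, with bead standard errors; open points were below detection and each panel has its own axis, which does not start at 0. Socs3 and Bcl3 stood highest on both arrays with LIF, whereas Gbp2 at 9.82 and Mcl1 at 11.78 were high on the LIF array but not on the PCL array.

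Of 42 listed STAT3 targets on the array 30 were compared and 22 stood above 0 (73.3%, against 55.2% of all genes). Their median difference was 0.31, against 0.05 over all genes, and 0.36 after the median of genes of like genomic span and level was subtracted. At least 2-fold higher were Socs3 and Stat3, and none was at least 2-fold lower. For the 12 others, among them Myc, Klf4 and Pim1, the brightest probe was detected on neither array. With the mean of detected probes in place of the brightest, 31 targets entered and 23 stood above 0. Of the 30, 3 were detected on 1 array only and entered through the value on that array. In the second contrast the median of the same 30 genes was 0.12, with 20 above 0, where 49.6% of all genes were.

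Among the survival genes of this list, Mcl1, which encodes an inhibitor of cell death, had 11.78 with LIF, 10.57 with PCL, 11.13 with PD, 10.73 with CH and 11.05 untreated. The LIF array was the highest and the PCL array the lowest, and the difference with LIF was 0.73 ± 0.07, against -0.36 ± 0.06 in the second contrast. Pim3, a survival kinase, stood at 0.50 ± 0.06, with 10.09 with LIF, 9.36 with PCL, 9.79 with PD, 9.08 with CH and 9.59 untreated. Birc5, which encodes survivin, lay at -0.27 ± 0.07, and Bcl2l1 at 0.10 ± 0.17 with its 3 probes between -0.29 and 0.53.

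Of the transcription factors, Klf5, a Krüppel-like factor of the naive state, had 8.44 with LIF, 8.57 with PCL, 7.51 with PD, 8.31 with CH and 7.90 untreated. Both arrays with LIF were above the others, by a narrow step over CH. Its difference was 0.54 ± 0.10 with LIF and 0.66 ± 0.07 in the second contrast. Junb, a subunit of AP-1, stood at 0.34 ± 0.15 and 0.73 ± 0.14, but its level of 6.62 with CH exceeded the 6.50 with LIF. Fos, another AP-1 subunit, had 6.25 with LIF, 5.32 with PCL, 5.36 with PD, 5.74 with CH and 5.55 untreated, and was highest on the LIF array and lowest on the PCL array. Sbno2, a corepressor that acts downstream of interleukin 10 and STAT3, was at least 1.26-fold higher with LIF, since it was below detection on the untreated array, but it lay at -0.34 ± 0.20 in the second contrast. Bcl6, a repressor, stood at 0.37 ± 0.19 and 0.34 ± 0.16.

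Icam1, a cell adhesion receptor, had 8.10 with LIF, 8.09 with PCL, 7.70 with PD, 7.56 with CH and 7.69 untreated. Its 2 values with LIF stood above the other 3 by about the same step, at 0.41 ± 0.15 and 0.46 ± 0.13. Gadd45g, a growth arrest gene, went the other way, at -0.40 ± 0.10 with LIF and 0.80 ± 0.07 in the second contrast. Beside genes of like span and level its value with LIF was only -0.09. Timp1, a metalloproteinase inhibitor, was the lowest of the list at -0.46 ± 0.07. In all, 6 of the 30 targets (20%) had both arrays with LIF above the 3 without it, against 8.9% of all genes: Socs3, Stat3, Bcl3, Bcl6, Klf5 and Icam1. None had both arrays with LIF below the others, as 5.87% of all genes did. Of the 13 targets with several probes, every probe was above 0 for 6 and below 0 for 5.

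**Figure D2:**
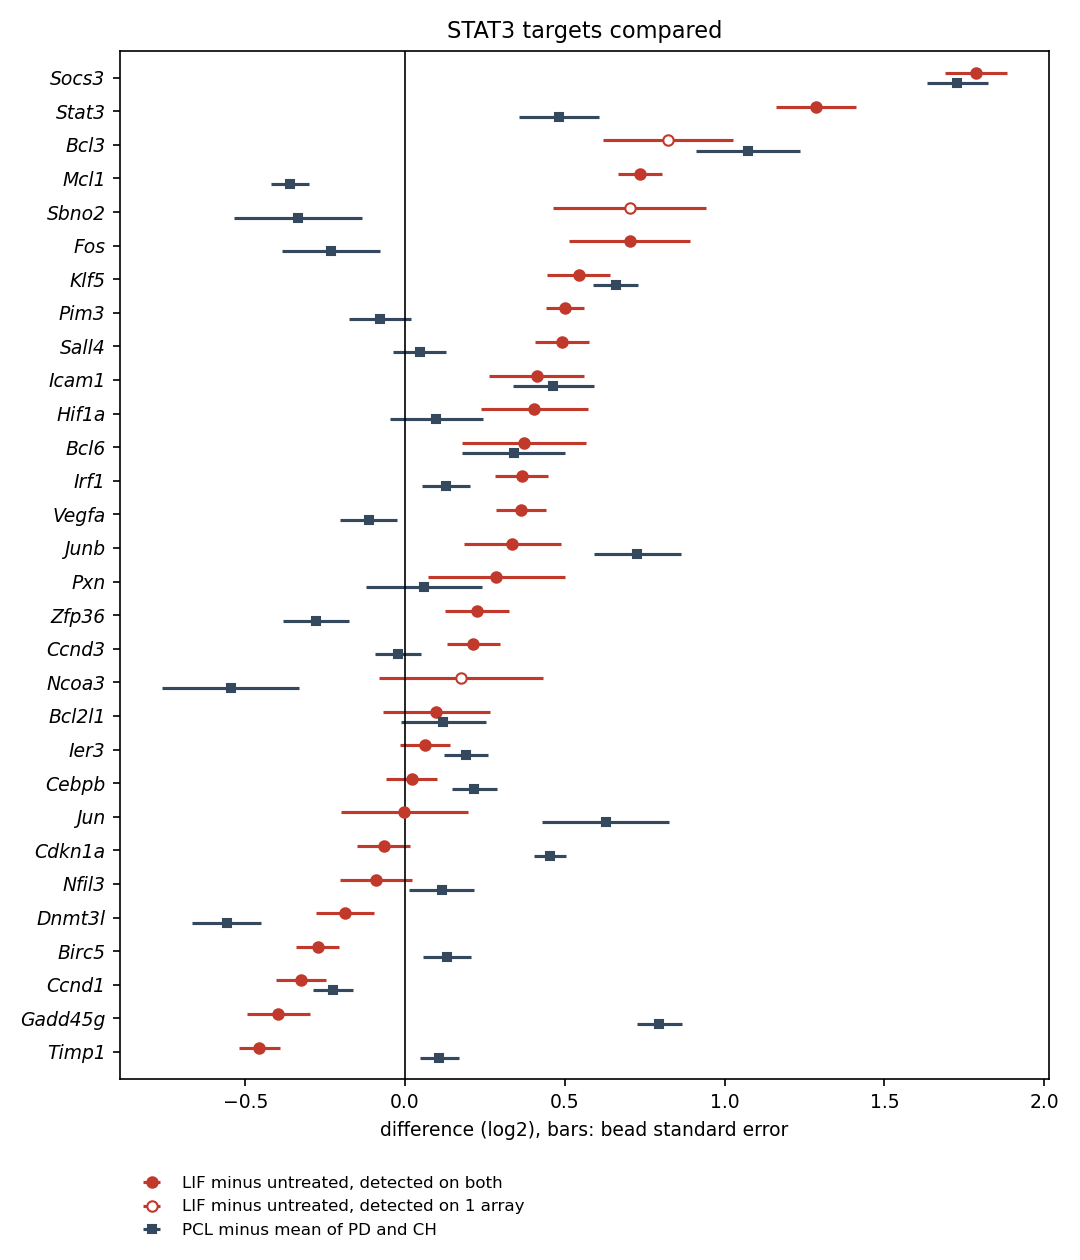
Differences of the 30 STAT3 targets compared, as LIF minus untreated (circles, open where the gene was detected on 1 array) and as PCL minus the mean of PD and CH (squares, whatever their detection), on the log2 scale with bead standard errors. Socs3 lies at 1.79 and 1.73, whereas Mcl1 and Gadd45g lie on opposite sides of 0. For Gadd45g the value with LIF was -0.09 beside genes of like span and level.

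STAT proteins bind the palindrome TTCNNNGAA, which reads the same on both strands. It was searched for in promoter windows of RefSeq (GRCm38.p6) from 250 bases before to 50 after a start site. It occurred in 8.3% of all 32851 windows and for 8.33% of the genes compared that had a window. For the STAT3 targets it was 7 of the 25 with a window (28%). Of the genes at least 0.5 higher in both contrasts, 4 of 18 with a window (22.2%) held it. The 4 include Socs3, already among the 7, and Tgm1, and the windows of the others are not shown. These genes were chosen by their values in these data, so this share is no separate support. A match describes these letters only and is no evidence of binding. The windows of Stat3 and Bcl3 held no motif. Dnmt3l, Zfp36 and Sbno2 did have a window with it, not shown here. Dnmt3l stood at -0.19 with LIF and -0.56 in the second contrast, and Zfp36 at 0.22 with LIF. Sbno2 had opposite signs in the 2 contrasts. These 5 windows belong to 4 STAT3 targets that stood above 0 in both contrasts and to Tgm1. Tgm1 ranked among the highest in both contrasts, but was below detection on the untreated array. The windows are given 5′ to 3′ on the gene's strand with the motif in capitals.
Socs3 (chr11:117969317-117969616, minus strand): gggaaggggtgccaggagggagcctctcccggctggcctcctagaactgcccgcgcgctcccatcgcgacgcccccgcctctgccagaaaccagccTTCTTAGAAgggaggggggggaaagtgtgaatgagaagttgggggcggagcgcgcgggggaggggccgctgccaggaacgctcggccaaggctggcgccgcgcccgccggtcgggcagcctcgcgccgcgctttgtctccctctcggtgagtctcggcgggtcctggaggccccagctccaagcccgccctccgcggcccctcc
Bcl6 (chr16:23981234-23981533, minus strand): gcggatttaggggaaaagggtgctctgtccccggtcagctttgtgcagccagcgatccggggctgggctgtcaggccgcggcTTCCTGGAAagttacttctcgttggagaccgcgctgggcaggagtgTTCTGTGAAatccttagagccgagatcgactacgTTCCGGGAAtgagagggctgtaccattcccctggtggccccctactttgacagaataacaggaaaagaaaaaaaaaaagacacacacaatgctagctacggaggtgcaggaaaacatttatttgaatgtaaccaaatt
Icam1 (chr9:21015690-21015989, plus strand): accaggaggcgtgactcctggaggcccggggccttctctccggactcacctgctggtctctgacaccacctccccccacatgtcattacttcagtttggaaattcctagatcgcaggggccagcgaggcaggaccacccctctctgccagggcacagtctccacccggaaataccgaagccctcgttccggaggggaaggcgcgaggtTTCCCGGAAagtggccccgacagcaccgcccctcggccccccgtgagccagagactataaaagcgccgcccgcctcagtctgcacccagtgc
Irf1 (chr11:53769764-53770063, plus strand): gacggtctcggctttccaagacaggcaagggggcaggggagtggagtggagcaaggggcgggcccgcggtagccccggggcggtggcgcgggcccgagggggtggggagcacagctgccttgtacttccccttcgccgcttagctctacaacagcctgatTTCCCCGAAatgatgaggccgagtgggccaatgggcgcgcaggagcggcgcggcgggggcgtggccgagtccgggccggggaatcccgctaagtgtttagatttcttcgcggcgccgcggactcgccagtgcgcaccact
Tgm1 (chr14:55713443-55713742, minus strand): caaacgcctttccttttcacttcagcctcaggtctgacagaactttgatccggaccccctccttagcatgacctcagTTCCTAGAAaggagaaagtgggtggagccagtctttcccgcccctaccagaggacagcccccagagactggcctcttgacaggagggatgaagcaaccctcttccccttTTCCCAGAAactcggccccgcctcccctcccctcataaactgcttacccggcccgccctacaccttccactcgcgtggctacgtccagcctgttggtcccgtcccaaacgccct

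The Socs3 motif begins 154 bases before the start site and that of Icam1 42 bases before it. The single motif of Irf1, an interferon response factor, begins at 90 bases. Its 4 probes differed by 0.07 to 0.37 with LIF, and its brightest lay at 9.95 with LIF, 9.79 with PCL, 9.48 with PD, 9.85 with CH and 9.58 untreated. The Bcl6 window, the second of 2 for this gene, holds 3 motifs. The first, not shown, holds 1 that begins 118 bases before its start site. Bcl6 was dim, with 5.59 with LIF, 5.72 with PCL, 5.24 with PD, 5.53 with CH and 5.22 untreated. Tgm1, a transglutaminase of epithelia, has 2 motifs and levels of 5.25 with LIF, 5.65 with PCL, 4.37 with PD, 5.25 with CH and 4.59 untreated. It was at least 1.11-fold higher with LIF.

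Of 35 listed components of the receptor and its signalling chain 23 were compared. Above 0 were 19 of them (82.6%, against 55.2% of all genes). Their median was 0.25, against 0.05 over all genes, and after Stat3 none reached 2-fold in either direction. Lifr and Il6st, the 2 chains of the LIF receptor, and Jak1 were detected on neither array. Jak2 had probes at 0.18 ± 0.17 and 0.81, and those of Tyk2, a related kinase, were at 0.50 ± 0.11 and 0.38. Of the other STAT genes, Stat4 was at 0.53 ± 0.17 and Stat6 at 0.29 ± 0.29. Stat2 was at least 1.36-fold higher, and the 2 probes of Stat5a disagreed at 0.58 and -0.37.

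Among the inhibitors of the pathway, Pias1 stood at 0.61 ± 0.08 and Cish, a relative of Socs3, at 0.44 ± 0.13. Socs2 lay at 0.25 ± 0.13, Socs4 at 0.16 ± 0.15 and Socs6 at -0.11 ± 0.17. Cish differed from 0 in the second contrast by -0.01 ± 0.11 and Pias1 by -0.05 ± 0.08. In that contrast 10 of the 23 components were above 0, where 49.6% of all genes were. Their median was -0.02, and only Stat3 among them had both arrays with LIF above the other 3.

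Outside these lists, Ahcy, which hydrolyses S-adenosylhomocysteine in the methionine cycle, had 7.98 with LIF, 6.97 with PCL, 6.15 with PD, 6.41 with CH and 6.11 untreated. The 2 cultures with LIF were again the highest. Its difference of 1.87 ± 0.16 was the largest above 0 of the genes compared, and in the second contrast it was 0.69 ± 0.10, on a single probe. Of 16 genes of the methionine and one-carbon cycle 13 stood above 0 (81.25%, against 55.2% of all genes), with a median of 0.18. Under median scaling 9 stood above 0 with a median of 0.10, and beside genes of like span and level the median was 0.0926. Ahcy was the only one past 2-fold; Cbs, which leads homocysteine out of the cycle, was at -0.75 ± 0.29.

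Upp1, uridine phosphorylase, had 13.24 with LIF, 12.70 with PCL, 12.00 with PD, 12.28 with CH and 12.18 untreated. Its 3 probes gave 1.07 ± 0.07, 0.87 ± 0.07 and 0.70 ± 0.08 with LIF, and 0.56, 0.57 and 0.56 in the second contrast. Gbp2, an interferon-induced GTPase, had 9.82 with LIF, 8.11 with PCL, 8.41 with PD, 8.02 with CH and 8.63 untreated, and was high on the LIF array only, with probes at 1.20 ± 0.09 and 0.99 ± 0.21. The remaining genes at least 2-fold higher were Atm, Bach1, Mars1, Mme, Six5 and Zfp825, of which Mme, Six5 and Zfp825 were below detection on the untreated array. For Atm, a DNA damage kinase, the level with PD, 6.35, was above the 6.25 with LIF, and its other probe gave 0.40. For Bach1, a repressor of heme oxygenase, the PD and LIF arrays both gave 6.99.

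The 10 genes highest in both contrasts, by the lower of the 2 values, were Socs3, Bcl3, Lpin3, Fbxo15, C2, Ahcy, Mbtps2, Eya2, Pdgfb and Tgm1, of which Bcl3, Lpin3, Eya2 and Tgm1 were below detection on the untreated array, so that their values there have no sure size. Fbxo15, an F-box gene expressed in naive cells, had 7.75 with LIF, 8.31 with PCL, 7.51 with PD, 7.26 with CH and 7.05 untreated. Pdgfb, a growth factor subunit, had 6.74 with LIF, 6.18 with PCL, 5.65 with PD, 5.43 with CH and 5.88 untreated. In both genes the cultures with LIF were the highest. C2, a complement component, had 7.13 with LIF, 7.68 with PCL, 6.41 with PD, 7.29 with CH and 6.34 untreated, so that CH stood above LIF. Lpin3, a phosphatidate phosphatase, was at least 1.78-fold higher with LIF. Of all genes 27 were at least 0.5 higher in both contrasts (0.346%). Of the 587 genes at least 0.5 higher with LIF, 240 (40.9%) stood above 0 in the second contrast, less than the 49.6% of all genes.

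Agreement between probes narrows the higher genes further. Of 2070 genes with several detected probes, every probe was at least 0.5 higher for 31 (1.5%) and at least 0.5 lower for 89 (4.3%). Probes detected on only 1 of the 2 arrays entered these counts with their difference as measured, not as a bound. In 794 genes the probes had opposite signs, and in 13 they were opposite by over 0.5 each. The 5 of the 11 higher genes with several probes included none with every probe past 2-fold. By their least changed probe, Gbp2 and Stat3 led, followed by Eif4a2, a translation initiation helicase, with both probes at 0.81 and 0.90. Eif4a2 had 12.98 with LIF, 12.42 with PCL, 12.75 with PD, 12.18 with CH and 12.09 untreated. Eef2, the translocase of translation elongation, had 3 probes at 0.60 to 0.75 and levels of 13.54 with LIF, 12.93 with PCL, 12.85 with PD, 12.88 with CH and 12.87 untreated. Under median scaling the brightest probe stood at 0.495 for Eif4a2 and at 0.195 for Eef2, both under 0.5. The others of the 20 were Xpo4, Sbno2, Upp1, Eprs, Ndrg1, Anln, Ctdspl2, Seh1l, Fnip1, Chm, Zfp106, Hbp1, Ddx1, Pabpc4, Tjp3 and Plekhg2. The brightest probes of Sbno2 and Chm were below detection on the untreated array, so that their differences have no sure size. With background left in they stood at 0.24 for Sbno2 and 0.20 for Chm.

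**Figure D3:**
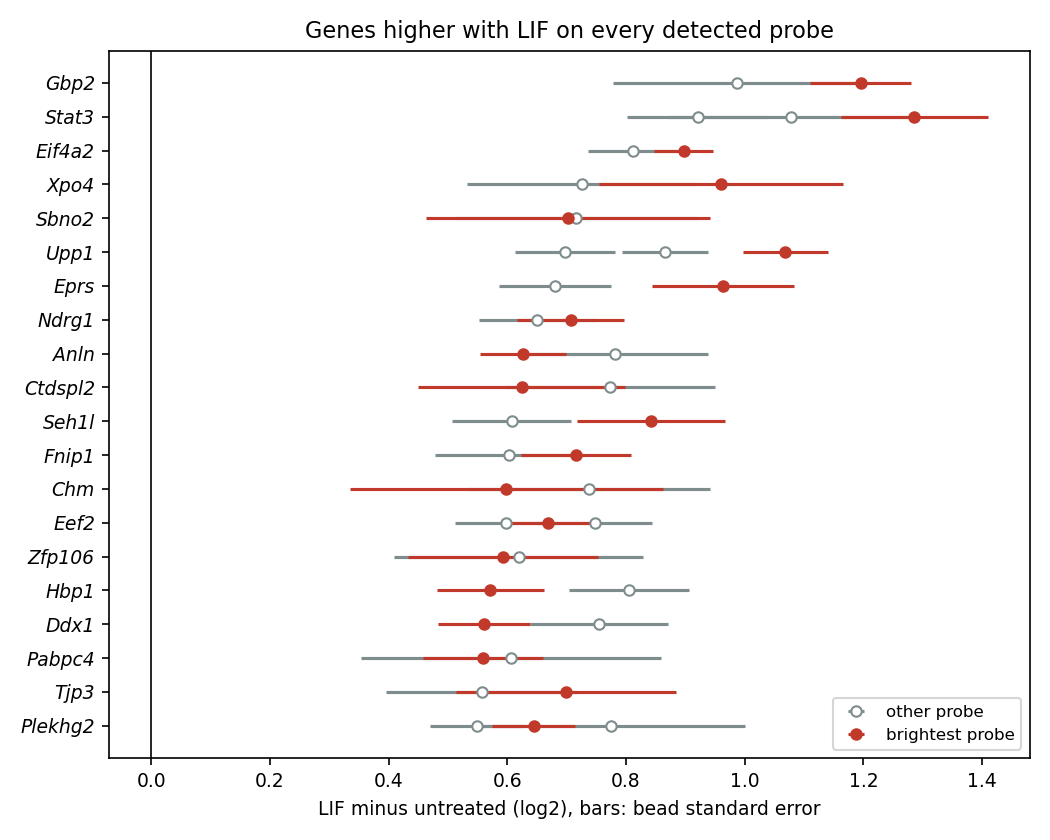
LIF minus untreated (log2) for the 20 genes with the highest value of their least changed probe, each detected probe as a point with its bead standard error. All detected probes of these genes lie above 0.5, and those of Stat3 lie between 0.92 and 1.29. Sbno2 and Chm were below detection on the untreated array, so that their differences have no sure size.

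In the list of the integrated stress response and tRNA synthetases, 22 of 36 genes (61.1%) stood above 0, near the 55.2% of all genes, with a median of 0.19 that was 0.0287 under median scaling, with 19 above 0. The 15 synthetases, which load tRNAs with amino acids, accounted for 13 of the 22. Their median was 0.37, and 0.23 beside genes of like span and level. In the second contrast only 3 of the 15 were above 0, where 49.6% of all genes were. Eprs had probes at 0.96 ± 0.12 and 0.68, Rars at 0.53 and 0.54, and Mars1 at 1.04 ± 0.08 and 0.27 ± 0.13. Levels of Eprs were 9.79 with LIF, 9.01 with PCL, 9.10 with PD, 9.05 with CH and 8.83 untreated.

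The pluripotency genes showed no difference of 2-fold except Dppa5a. Of 14 core pluripotency genes 12 stood above 0 (85.7%, against 55.2% of all genes). Their median of 0.40 was 0.06 under median scaling, and none had both arrays with LIF above the other 3. Pou5f1 had probes at 0.43 ± 0.09 and 0.26, and Sox2 at 0.50 ± 0.13 and 0.09. Of 15 naive pluripotency genes 10 stood above 0 (66.7%, against the same 55.2%), with a median of 0.13 that was 0.0831 under median scaling. Both arrays with LIF exceeded the others for 5 of the 15, against 8.9% of all genes, namely Klf5, Esrrb, Fbxo15, Zfp42 and Pecam1, of which Zfp42 and Pecam1 are named after their values were seen. Esrrb, an orphan nuclear receptor, had 7.63 with LIF, 7.99 with PCL, 7.45 with PD, 7.60 with CH and 7.28 untreated. Fgf4, which drives the exit from the naive state, was at 0.69 ± 0.17 with LIF and at -1.14 ± 0.16 in the second contrast. Dppa5a, a small RNA-binding protein of pluripotent cells, stood lower with LIF on both detected probes, by -1.11 ± 0.08 and -1.22 ± 0.08. Its span is short, 1148 bp, and beside genes of like span and level its difference was -0.71, less than 2-fold.

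Of 19 primed epiblast genes 8 stood above 0 (42.1%, against 55.2% of all genes), and their median of -0.06 turned positive under 3 alternatives. Lefty2, an inhibitor of Nodal, was at 0.84 ± 0.14, Igfbp3 at 0.85 ± 0.11 and Otx2 at 0.41 ± 0.09. Igfbp3 had 9.90 with LIF, 9.94 with PCL, 9.46 with PD, 9.36 with CH and 9.05 untreated. Lower with LIF was a small group of primitive streak genes. Wnt8a, a Wnt ligand, had 5.57 with LIF, 9.12 with PCL, 6.84 with PD, 9.97 with CH and 7.63 untreated. The LIF array was the lowest of the 5, and its 3 probes lay between -2.05 ± 0.21 and -1.06 ± 0.28. Fgf8, a growth factor of the streak, had 6.04 with LIF, 10.10 with PCL, 7.24 with PD, 10.10 with CH and 7.44 untreated, a difference of -1.40 ± 0.15. Gsc, a homeobox gene of the organizer, was at -0.89 ± 0.15. Only 6 of 25 listed mesoderm, endoderm and streak genes were detected, and 5 of the 6 stood below 0. Their median was -0.63, and -0.51 beside genes of like span and level. At a detection p under 0.05, 5 of 14 stood above 0 with a median of -0.27. With no detection filter 11 of the 25 did, with a median of -0.08. The span of Fgf8, Wnt8a and Gsc is short, 6451, 5735 and 2028 bp.

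Targets and feedback inhibitors of ERK had 7 of 20 above 0 (35%, against 55.2% of all genes). Their median of -0.14 was 0.07 against the mean of the 3 arrays without LIF. Dusp6, a phosphatase that inactivates ERK, was at -0.44 ± 0.10 and its second probe at 0.12, and Dusp14 was at least 2.21-fold lower. Irgm1, an immunity-related GTPase, was at -1.96 ± 0.07, but its other probe gave 0.26 ± 0.18. The feeder fibroblast markers had 15 of 28 above 0 (53.6%, near the 55.2% of all genes). Their median of 0.03 was negative under 4 alternatives, and Mgp at -1.33 ± 0.17 was the one past 2-fold.

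**Figure D4:**
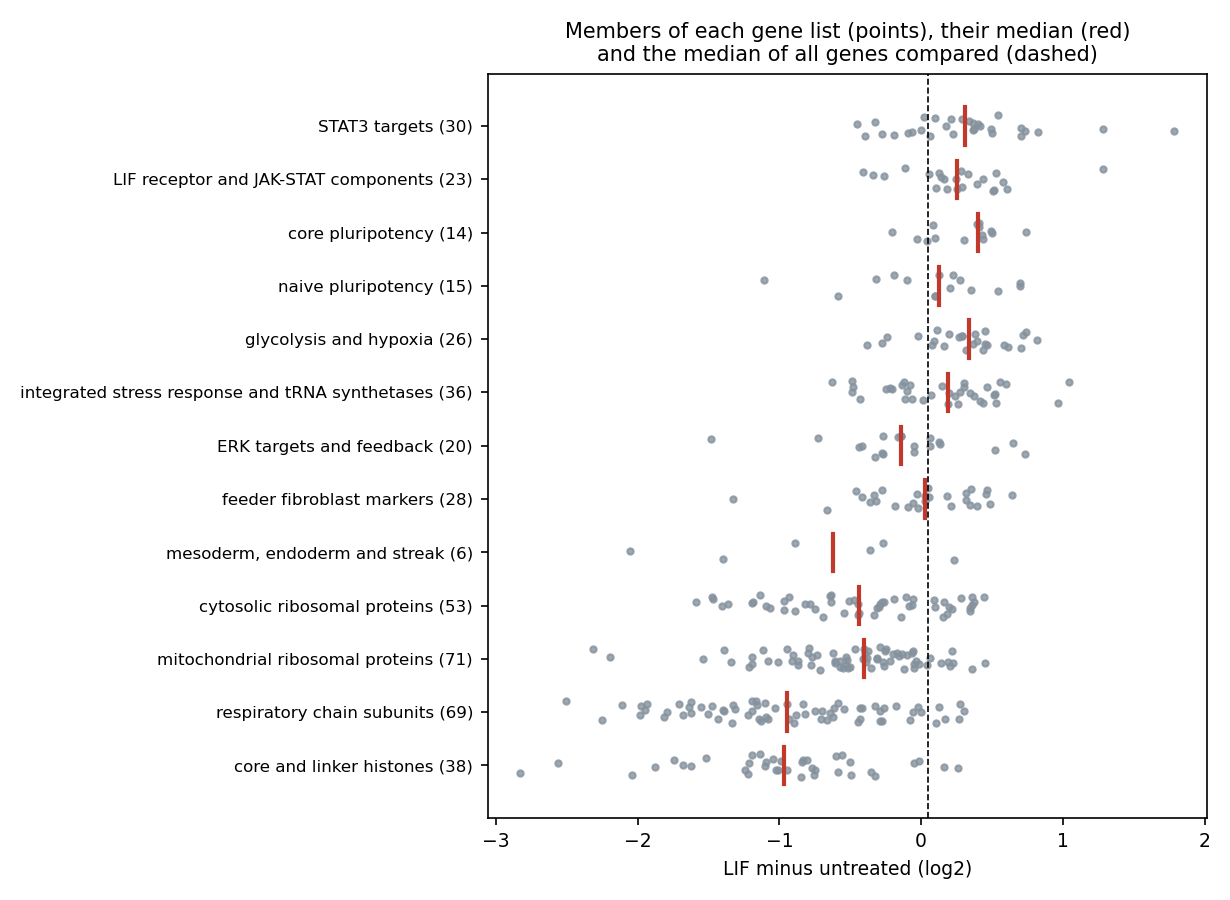
LIF minus untreated (log2) for the detected members of 13 gene lists, 1 point per gene with the list's median as a red bar, and the median of all genes, 0.05, as a dashed line. Respiratory chain subunits and histones have medians of -0.95 and -0.97, and STAT3 targets 0.31.

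Of the 219 lower genes 73 (33.3%) were cytosolic or mitochondrial ribosomal proteins, respiratory chain subunits or histones, which make up 231 of all genes compared (2.96%), and 146 belonged to none of these lists. Of 69 respiratory chain subunits 6 stood above 0 (8.7%, against 55.2% of all genes), with a median of -0.95. At least 2-fold lower were 34 of them, against 2.81% of all genes. Without the 3 groups of shortest span the median of the 19 subunits left was -0.29, and that of 21 mitochondrial ribosomal proteins -0.26. Of 38 histone genes 18 were at least 2-fold lower, with a median of -0.97, and none lay outside the 3 shortest groups. The mitochondrial ribosomal proteins had 11 of 71 and the cytosolic ones 10 of 53 past 2-fold, with medians of -0.40 and -0.44, and the cytosolic median was -0.76 under median scaling and -0.21 beside genes of like span and level. The LIF array was the lowest of the 5 for 56 of the respiratory chain subunits, 30 of the histones and 41 of the mitochondrial ribosomal proteins, against 20.1% of all genes. In the second contrast the medians of these 4 lists lay between 0.01 and 0.07.

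Examples were Ndufa3, a subunit of complex I, with 7.72 with LIF, 10.04 with PCL, 10.20 with PD, 10.02 with CH and 10.22 untreated. H2ac21, an H2A histone gene, had 6.94 with LIF, 9.69 with PCL, 9.39 with PD, 9.40 with CH and 9.77 untreated. In both genes the LIF array stood apart from 4 arrays close to each other. Slirp, an RNA-binding protein of mitochondria, had probes at -2.10 ± 0.07 and -2.04 ± 0.12. Of the 39 lower genes with several probes, every probe was at least 2-fold lower in 22. By their least changed probe the others among the 10 lowest were Apoc1, Smim26, Ndufc1, Sec61b, Tmem160, Mrpl33, Cox6b1, Rpl38 and Uqcr10.

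Most of the lower genes were short. Of the 219, 184 lay in the shortest 3 of 10 groups by genomic span, and 131 in the brightest of 3 groups by level. The LIF array was the lowest of 5 for 47.1% of the shortest group, up to 4168 bp, and for 10.4% of the longest, from 100687 bp. The median difference was -0.32 in the shortest group and 0.16 in the longest, and in the brightest genes -0.40 and 0.21. In the second contrast the trend ran the other way, at 0.08 and -0.08. That contrast subtracts the PD array, which had a trend in the direction of the LIF array. Against the mean of untreated, CH and PCL, the PD array lay at -0.09 in the shortest group and 0.11 in the longest. Against the mean of untreated, PD and CH, the PCL array lay at 0.03 and -0.04. The LIF array lay at -0.19 and 0.10 against the mean of the 4 others. Whether RNA or its amplification on the LIF array differed from that on the other arrays was not tested, since 1 array stands for the culture. The higher genes had a median span of 17346 bp, against 21051.5 bp for all genes. Outside the 3 shortest groups lie 9 of the 11, as do 5454 of all 7796 genes. Socs3, with a span of 4258 bp, lay in a group with a median of -0.11.

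**Figure D5:**
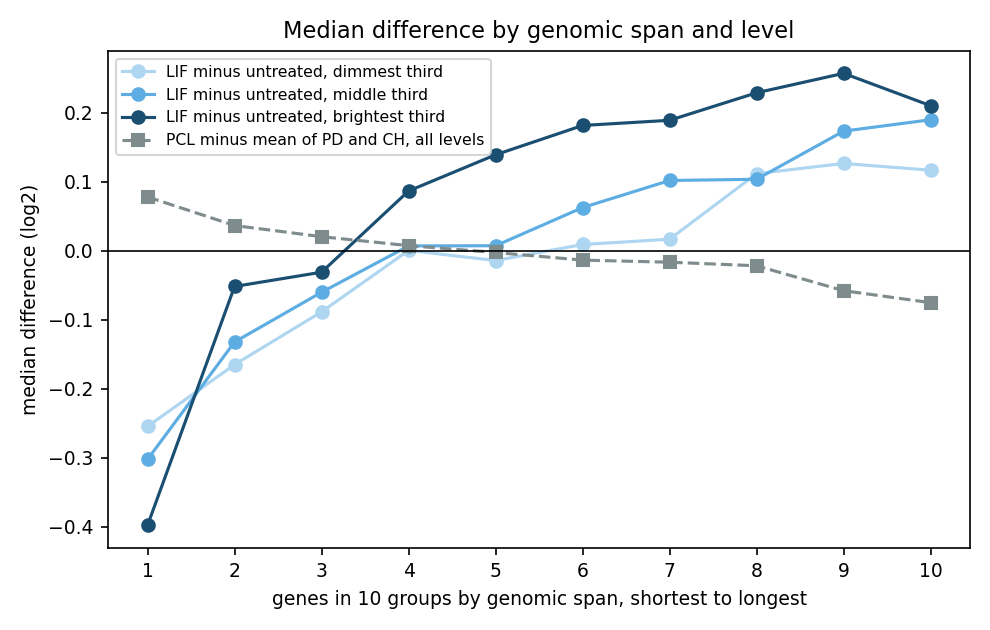
Median log2 difference of genes in 10 groups by genomic span (shortest to longest), for LIF minus untreated in 3 groups by level and for PCL minus the mean of PD and CH over all levels. The brightest genes run between -0.40 in the shortest group and 0.26 in the ninth, and the second contrast runs the other way between 0.08 and -0.08. That contrast subtracts the PD array, whose own trend ran in the direction of the LIF array.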

How the data were processed

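Each of 5 cultures was measured on 1 Illumina bead array, from 400 ng RNA amplified by in vitro transcription for 12 h with Cy3 as the dye, per the labels. Per the file headers, the deposited values for 25697 probes are a linear mean bead intensity, its bead standard error and a detection p-value. The lowest deposited intensity per array ranged over 67.6 to 71.4, a sign that background was still in the values, and the detection p-value moved in steps of 1 in 798. Per the submitters' processing notes, BeadStudio was used (no version is listed). A table of processed intensity values that the authors deposited too, rounded to whole numbers with 51.1% null, was an alternative only, and how it was made is not stated.

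The intensities of all 5 arrays were normalized with neqc of limma 3.58.1 (R 4.3.3), which uses the detection p-values to infer the background, then an offset of 16, quantile normalization and log2. The offset pulls dim genes towards 0. Probes were named through a platform annotation and a RefSeq table (GRCm38.p6), which matched 23962 probes, and 1719 probes had no symbol. For 4777 of 16593 genes with several probes the brightest stood for the gene. Genes detected on 1 of the 2 arrays (402 with LIF only, 282 untreated only) were given as bounds ("at least N-fold"), the level of the brighter array over the higher of the lowest detected level and the gene's own level on the dimmer array. Called means a 2-fold difference, and no p-value was computed, since the number of arrays limits the precision. Genomic span includes introns and stands in for transcript length.

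The named genes were all detected STAT3 and JAK-STAT list members, the 20 highest and 20 lowest genes, the 20 highest and 10 lowest by their least changed probe, up to 6 members of each other list and the 10 highest in both contrasts. The members, lists and rules were chosen with earlier results of these data known, and the patterns for ribosomal proteins, respiratory chain, histones and proteasome were narrowed to true subunits after the values were seen. Scripts were tested on simulated data. Tables and figures used Python 3.11.15, pandas 2.3.3, numpy 2.4.6 and matplotlib 3.10.9. The result of 1 gene list is not reported here.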

Additional observations from a re-analysis of the deposited data

Results flagged for a closer look

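Fgf8 stood at -1.40 with LIF against untreated and at 1.43 in PCL against the mean of PD and CH, values of opposite sign. The difference between them was not tested, and each rests on 1 array per condition. Fgf8 had 10.10 with PCL and with CH and 7.24 with PD, so the second value comes from the PD level and gives no direction with LIF.

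Of 639 detected probes that have no gene symbol and entered no gene comparison, the highest difference was 1.07 and the lowest -1.83. At least 2-fold higher was 1 of them and at least 2-fold lower were 13.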

How the results depend on the processing

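The counts past 2-fold depended on the scaling, the background and the offset. The 11 higher genes became 6 under median scaling, 5 with background left in, 6 at an offset of 50 and 172 at an offset of 1. The 219 lower genes became 134 with background left in and 397 at an offset of 1, and 35 without the 3 groups of shortest span, an alternative chosen after the data were seen. Under the other alternatives they were 8 to 13 and 160 to 285. The STAT3 median of 0.31 was 0.0939 with no detection filter, where the 12 genes left out before entered, and 0.17 to 0.37 otherwise. The gap between the shortest and the longest span group, -0.48, was -0.28 against the mean of the 3 arrays without LIF and -0.0734 with no detection filter. Of 734 values of the 61 named genes past 2-fold under 13 alternatives (12 planned), 601 stayed within the interval of their bead error, 133 moved and 0 reversed. Changes of the detection rule and removal of the 3 shortest groups return the main value for every gene kept. These alternatives could not move a single-gene value, and the 601 include their unchanged values. Under median scaling the median of all genes was -0.03. Without the 3 shortest groups the lists of short genes lost most members: 1 of 53 cytosolic ribosomal proteins and no histone was left. No paired analysis was possible because each condition has 1 array and the labels carry no replicate numbers, and for the same reason no replicate could be left out. Dim genes, near the median intensity of 90.0 to 96.1, carry little signal over background.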

Other observations

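Genes of glycolysis and the hypoxia response stood higher on the LIF array as a group. Of 26 compared 22 were above 0 (84.6%, against 55.2% of all genes), with a median of 0.34. The LIF array was the highest of the 5 for 20 of them, against 27.8% of all genes. Slc2a1, the main glucose transporter, had 13.70 with LIF, 13.04 with PCL, 13.63 with PD, 12.74 with CH and 12.88 untreated. Hk2, hexokinase, stood at 0.74 ± 0.07, Slc2a3 at 0.72 ± 0.07 and Ldha, lactate dehydrogenase, at 0.58 ± 0.06. Ndrg1, a hypoxia-induced gene, had probes at 0.71 and 0.65. None was 2-fold higher, the median was 0.12 under median scaling with 17 of 26 above 0, and in the second contrast it was 0.04 with 16 above 0. Beside genes of like span and level the median was 0.26.

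The proteasome subunits, another large complex, had 9 of 34 above 0 against 55.2% of all genes, with a median of -0.05 that was -0.37 under median scaling and -0.13 beside genes of like span and level, and none past 2-fold. The small nuclear ribonucleoproteins and LSM proteins had 4 of 25 at least 2-fold lower, against 2.81% of all genes, led by Snrpg at -1.87 ± 0.08. Their median of -0.33 was 0.0186 over the 9 members outside the 3 groups of shortest span. Of 20 detected p53 targets 13 stood above 0 (65%, against 55.2% of all genes), with a median of 0.07, close to the 0.05 of all genes. Gapdh had probes at 0.07 ± 0.04 and 0.36. Actb stood at 0.46 ± 0.06, with 5 probes between -0.84 and 0.46 and a sign that turned under 2 alternatives.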
